A study of Mus musculus with 6 samples.

Results

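The Myc and Max network is a set of transcription factors that bind DNA as pairs through a shared basic helix-loop-helix leucine zipper. MYC, MYCN and MYCL pair with MAX, occupy the E-box CACGTG and raise transcription of genes for ribosome production, metabolism and cell division. MXD1, MXD3, MXD4, MXI1 and MNT pair with the same MAX protein on the same sites and recruit SIN3 corepressors, and MGA, a larger MAX partner with a further T-box domain, works inside the variant Polycomb complex PRC1.6. In the developing cerebellum, MYCN is the family member that sonic hedgehog signaling induces to keep granule neuron precursors (GNPs) dividing, and it declines as they leave the cell cycle. The 10 genes examined here are Myc, Mycn, Mycl, Max, Mxd1, Mxd3, Mxd4, Mxi1, Mnt and Mga, taken by name from the 55341 gene symbols counted in each library. All 10 were among the 16343 genes that passed the filter on low counts.

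RNA-seq was made from cultured mouse cerebellar granule neurons (CGNs), 3 libraries given the vehicle (DMSO) and 3 given GSK-126, an inhibitor of the histone methyltransferase EZH2, which places trimethylation on lysine 27 of histone H3 (H3K27me3). The question was how the transcripts of this network stand in CGNs that mature with EZH2 inhibited. All cultures of both groups came from CD1-IGS pups at P6-P8, in the period of granule cell production, of both sexes, were enriched for granule cells on a Percoll gradient and received AraC, which kills dividing cells. A replicate was a culture from the pooled cerebella of litters. The study harvested such cultures at DIV5, after a single addition of inhibitor at DIV1 or DIV3, and the labels give neither the dose nor which of these days applies to these libraries. Whether cells of the 2 treatments under a given replicate number came from the same pool is not stated. Libraries held 8058760 to 12047837 counts over genes, and 3 counts, taken as the floor of detection, correspond to 0.249 to 0.372 CPM (a count set against the size of its library). Levels within a gene are given as CPM after TMM scaling, and levels between genes as CPM per kilobase of exon.

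The start regions of Mycn, Mnt and Mxd4 are shown because Mycn is the member whose transcript passed the test and because Mnt and Mxd4 carry, before their start, the E-box that the network itself binds. Sequences are from RefSeq (GRCm38.p6), 5′ to 3′ on the strand of the gene, and end before the exons of the gene begin. Capitals mark TTTGGCGC or TTTCGCGC, forms of the site of E2F cell cycle factors, in Mycn, and CACGTG in Mnt and Mxd4.
Mycn, chr12:12941915-12942086, minus strand: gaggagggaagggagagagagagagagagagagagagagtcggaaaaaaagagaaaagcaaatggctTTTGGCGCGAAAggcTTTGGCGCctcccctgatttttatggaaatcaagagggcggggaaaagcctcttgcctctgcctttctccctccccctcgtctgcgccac
Mnt, chr11:74830674-74830919, plus strand: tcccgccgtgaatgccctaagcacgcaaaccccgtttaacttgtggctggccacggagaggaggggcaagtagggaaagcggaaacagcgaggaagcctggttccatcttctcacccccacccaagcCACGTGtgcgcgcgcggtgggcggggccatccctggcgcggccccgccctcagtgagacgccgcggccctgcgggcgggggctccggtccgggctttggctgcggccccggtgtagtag
Mxd4, chr5:34187721-34187960, minus strand: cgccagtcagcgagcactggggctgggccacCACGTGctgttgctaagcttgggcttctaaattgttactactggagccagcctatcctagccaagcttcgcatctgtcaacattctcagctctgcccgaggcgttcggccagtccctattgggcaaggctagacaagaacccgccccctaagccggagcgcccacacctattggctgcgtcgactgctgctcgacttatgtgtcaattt

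RefSeq start windows of 300 bases, from 250 before the start to 50 after it, were at hand for 9 of the 10 members, in 11 windows, and not for Myc. Both strands were searched. CACGTG lay in the windows of Max, Mnt and Mxd4, and in 7.15% of 32851 windows of all genes. The window of Mycn held TTTGGCGC in 2 places and TTTCGCGC in 1, the latter overlapping the former within the run TTTGGCGCGAAA. TTTGGCGC was found in 0.514% and TTTCGCGC in 0.323% of all windows, and neither was found in a window of another member. These E2F-type letters were chosen after the Mycn sequence had been seen. A match is a stretch of letters and no measure of binding. CG dinucleotides numbered 14 in the Mycn window, fewer than in the window of any other member (17 to 49), against a median of 7 over all windows.

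Of the network's activators, Mycn rose with GSK-126 and Myc and Mycl did not pass the test. Mycn (chromosome 12, 12936093 to 12941914, minus strand, GRCm38) had 9.23, 14.4 and 17.8 CPM in DMSO replicates 1, 2 and 3, counted 80, 115 and 151 times. It had 24.3, 30.1 and 24.0 CPM in GSK-126 replicates 1, 2 and 3, counted 292, 250 and 211 times. Every GSK-126 library stood above every DMSO library. The mean went from 13.8 ± 4.33 to 26.2 ± 3.44 CPM (SD, n = 3), a fitted rise of 1.94-fold (95% interval 1.42 to 2.64) with the replicate number as a block. On the log2 scale this was 0.95 (SE 0.204, edgeR quasi-likelihood test, Benjamini-Hochberg adjusted p = 0.0282). Within the pairs the log2 ratios were 1.38, 1.06 and 0.43. Replicate 1, with the largest ratio, had the lowest DMSO level, and replicate 3, with the smallest ratio, the highest. Without the block the fit gave 0.92 (SE 0.258, 95% interval 0.33 to 1.51) at an edgeR adjusted p of 0.792, and without replicate number 1 or 2 it was 0.0631 or 0.120 with the block.

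Mycn was the member called of 10, and 2 of 10 had an unadjusted p under 0.05. Over all 16343 genes tested, 3.65% were called (2.23% higher and 1.42% lower), 16.7% had an unadjusted p under 0.05, and 10.9% had groups that did not overlap, which among the members held for Mycn alone. Log2 ratios had 1 sign in all 3 pairs for 2 of 10 members, Mycn and Mycl, and for 39% of all genes. Without the block 0 of 10 members (1 at an unadjusted p under 0.05) and 0 of all genes (0%) were called by edgeR, while 6% of all genes had an unadjusted p under 0.05. DESeq2 called Mycn with the block (adjusted p = 0.00610) and not without it (adjusted p = 0.163). The median log2 fold change of the 10 members was -0.06, beside -0.00 for all genes tested, with 4 above 0 and 6 below.

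**Figure D1:**
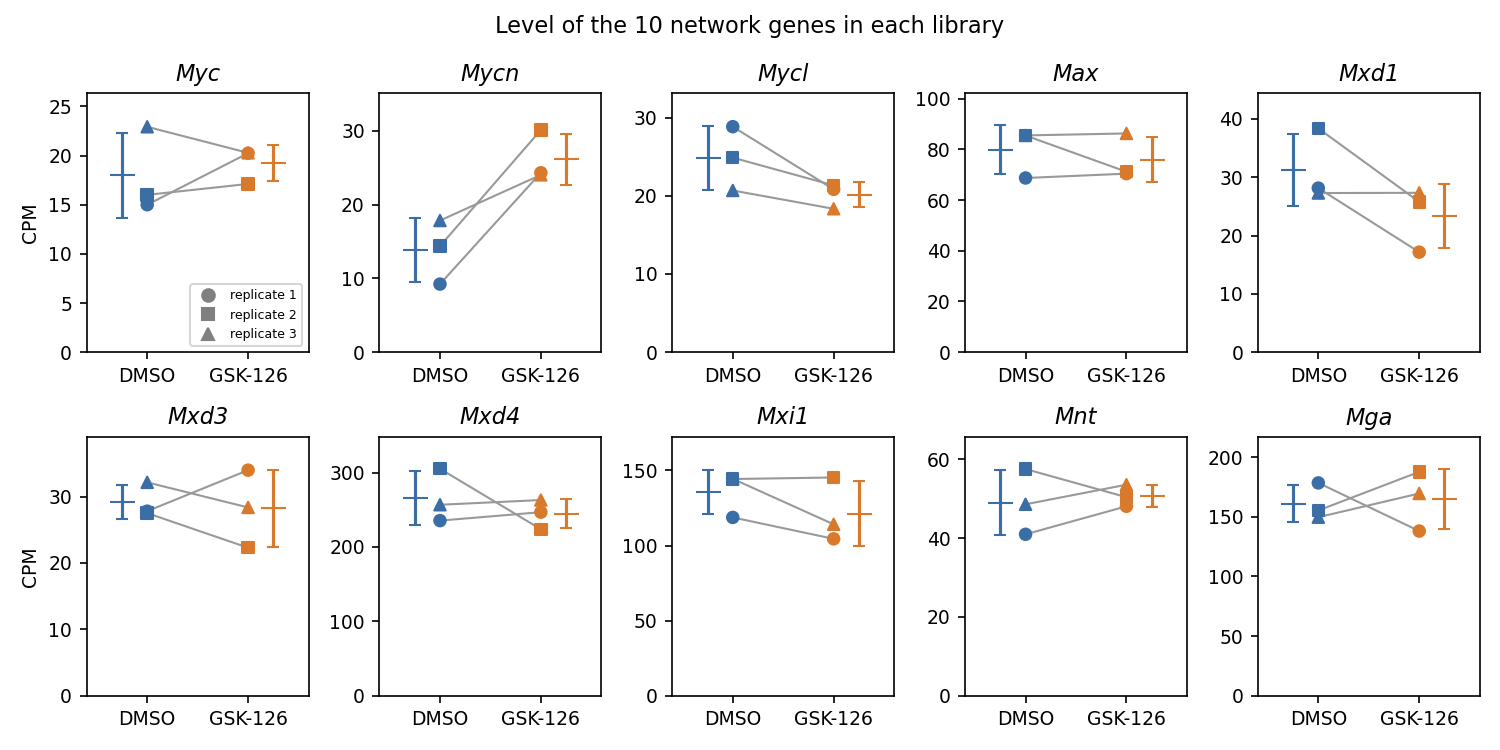
Level of each member in each library, in CPM on a linear axis from 0 with its own scale in each panel. Symbols mark the replicate, lines join DMSO and GSK-126 libraries of the same number, and the crosses beside them are the mean and SD (n = 3). The GSK-126 points of Mycn, at 24.0 to 30.1 CPM, all lie above its DMSO points, at 9.23 to 17.8 CPM, whereas the points of the other 9 members overlap between the treatments.

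Myc, the founding member of the family (chromosome 15, 61985391 to 61990374), had 15.0, 16.0 and 22.9 CPM with DMSO and 20.2, 17.1 and 20.3 CPM with GSK-126. The groups overlapped, and DMSO replicate 3 held the highest value. The fitted log2 change was 0.12 (SE 0.182, 95% interval -0.28 to 0.52, edgeR adjusted p = 0.814). A rise as large as the 0.95 fitted for Mycn lies outside this interval, but the Mycn interval, 0.51 to 1.40, overlaps it at its lower end. Mycl, the least transforming family member (chromosome 4, 122995652 to 123002485), had 28.8, 24.9 and 20.7 CPM with DMSO and 20.8, 21.3 and 18.3 CPM with GSK-126. It was lower in 3 of 3 pairs, but the groups overlapped, and the fitted log2 change was -0.29 (SE 0.159, 95% interval -0.64 to 0.06, edgeR adjusted p = 0.400). Within pairs, the log2 change of Mycn exceeded that of Myc by 0.84 ± 0.205 and that of Mycl by 1.24 ± 0.624 (SD, n = 3 pairs).

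Max, the partner that all other members share (chromosome 12, 76937269 to 76962201), had 68.8, 85.5 and 85.5 CPM with DMSO and 70.5, 71.2 and 86.3 CPM with GSK-126. The ranges nearly coincided. The fitted log2 change was -0.07 (95% interval -0.32 to 0.18, edgeR adjusted p = 0.821), so a fall or rise of the size fitted for Mycn lies outside the interval.

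Among the MAX partners that oppose MYC, the lowest p belonged to Mxd1, which is induced when many cell types differentiate. Mxd1 (chromosome 6, 86647042 to 86669161) had 28.1, 38.4 and 27.3 CPM with DMSO and 17.2, 25.8 and 27.3 CPM with GSK-126. Replicates 1 and 2 were lower with GSK-126 and replicate 3 was level, with log2 ratios of -0.71, -0.57 and 0.00. The log2 fold change was -0.43 (SE 0.172, 95% interval -0.81 to -0.05), with an unadjusted p of 0.0298 and an adjusted p of 0.232 (edgeR), so Mxd1 was not called.

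The other 5 opposing partners had log2 fold changes from -0.17 to 0.06 and edgeR adjusted p-values from 0.489 to 0.953, and their groups overlapped. Mxi1, also called Mad2 (chromosome 19, 53310518 to 53375810), had 119, 144 and 144 CPM with DMSO and 104, 145 and 114 CPM with GSK-126 (-0.17, 95% interval -0.42 to 0.07). Mxd4, the most abundant of the group (chromosome 5, 34173883 to 34187720), had 235, 305 and 257 CPM with DMSO and 247, 224 and 263 CPM with GSK-126 (-0.11, 95% interval -0.38 to 0.15). Mxd3, which unlike the other Mxd genes is known from dividing precursors, including GNPs (chromosome 13, 55325168 to 55329823), had 27.8, 27.5 and 32.1 CPM with DMSO. With GSK-126 Mxd3 had 34.0, 22.3 and 28.4 CPM (-0.06, 95% interval -0.41 to 0.30). For none of these did all libraries of a treatment stand to 1 side of the other.

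Mnt, the broadly expressed MAX partner (chromosome 11, 74830920 to 74845725), had 41.0, 57.5 and 48.6 CPM with DMSO and 48.1, 50.4 and 53.5 CPM with GSK-126 (0.06, 95% interval -0.23 to 0.35). Mga (chromosome 2, 119897228 to 119969581) had 178, 155 and 150 CPM with DMSO and 138, 188 and 169 CPM with GSK-126 (0.03, 95% interval -0.26 to 0.32). The DMSO and GSK-126 values of both genes were interleaved. A small share of the exon bases of Mxd4 (6.06%), Mxd3 (4.43%) and Mxi1 (2.84%) overlaps a gene on the opposite strand, and whether counting used strand is not stated.

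**Figure D2:**
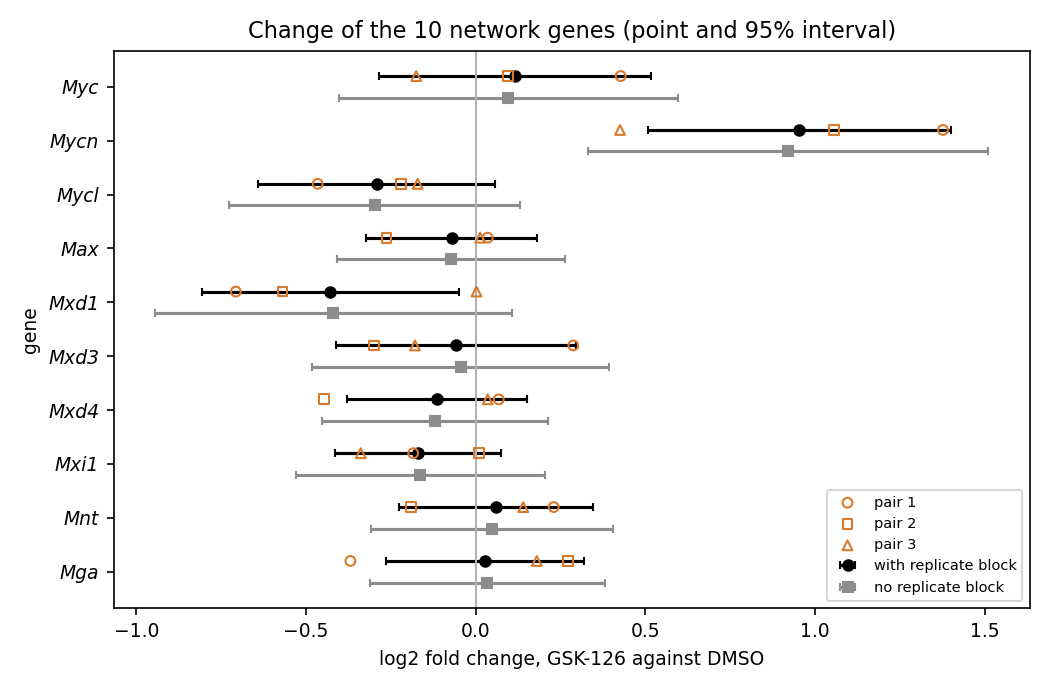
Log2 fold change of each member, GSK-126 against DMSO, with its 95% interval from the fit with the replicate block (black) and without it (gray), and the log2 ratio of each of the 3 pairs as open symbols. With the block the Mycn interval, 0.51 to 1.40, lies above 0 and that of Mxd1, -0.81 to -0.05, below, and without it only that of Mycn, 0.33 to 1.51, leaves 0 out.

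The change of Mycn was set against that of each other member within the pairs. The mean difference of log2 ratios ran from 0.84 ± 0.205 against Myc to 1.38 ± 0.858 against Mxd1 (SD, n = 3 pairs). It was above 0 in 3 of 3 pairs for each of the 9 members compared. An exact sign-flip permutation test, two-sided, gave p = 0.25 for every member (adjusted over the 9, 0.25), which is the smallest p that 3 pairs can give, so these differences could not pass a threshold of 0.05 by that test.

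Per kilobase of exon, Mxd4 was the most abundant member in DMSO (31.3 ± 4.21 CPM per kilobase), followed by Max (22.2 ± 2.69), Mxi1 (19.9 ± 2.17), Mxd3 (12.3 ± 1.10), Mnt (10.6 ± 1.79) and Mga (10.5 ± 0.992). The 4 lowest were Myc (6.62 ± 1.59), Mycl (6.14 ± 1.01), Mxd1 (4.42 ± 0.872) and Mycn (4.19 ± 1.32, SD, n = 3). The libraries separated Mxd4 from Max, Mxi1 from Mxd3 and Mga from Myc without overlap, and all other neighbors in this order overlapped. With GSK-126 Mycn moved from place 10 to place 7 at 7.94 ± 1.04 CPM per kilobase, ahead of Myc (7.07 ± 0.668), Mycl (4.99 ± 0.396) and Mxd1 (3.31 ± 0.776). Its libraries still overlapped those of Myc, the next below. The opposing partners Mxd4 and Mxi1, at 28.8 ± 2.32 and 17.8 ± 3.13 CPM per kilobase, stayed above every activator.

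The make-up of the Myc family followed from these levels and is given as a description, without a test. Mycn made up 18.1%, 26.6% and 28.5% of the summed Myc, Mycn and Mycl level per kilobase with DMSO, and 36.9%, 44.1% and 37.8% with GSK-126. The share of Mycl went from 36.9 ± 9.62% to 24.9 ± 1.23% and that of Myc from 38.7 ± 5.01% to 35.4 ± 4.43% (SD, n = 3). The summed family level was 15.5, 16.4 and 19.0 CPM per kilobase with DMSO and 20.0, 20.7 and 19.3 with GSK-126, so DMSO replicate 3 came close to the GSK-126 libraries. The summed level of the 6 opposing partners was 5.26, 5.89 and 4.70 times that of the family with DMSO and 4.03, 4.05 and 4.47 times with GSK-126. Max was 1.24, 1.45 and 1.25 times the family level with DMSO and 0.980, 0.955 and 1.24 times with GSK-126. With the longest transcript as the length, the mean ratio of opposing partners to family was 6.56 with DMSO and 5.10 with GSK-126, and the mean Mycn share 25.6% and 41.1%.

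**Figure D3:**
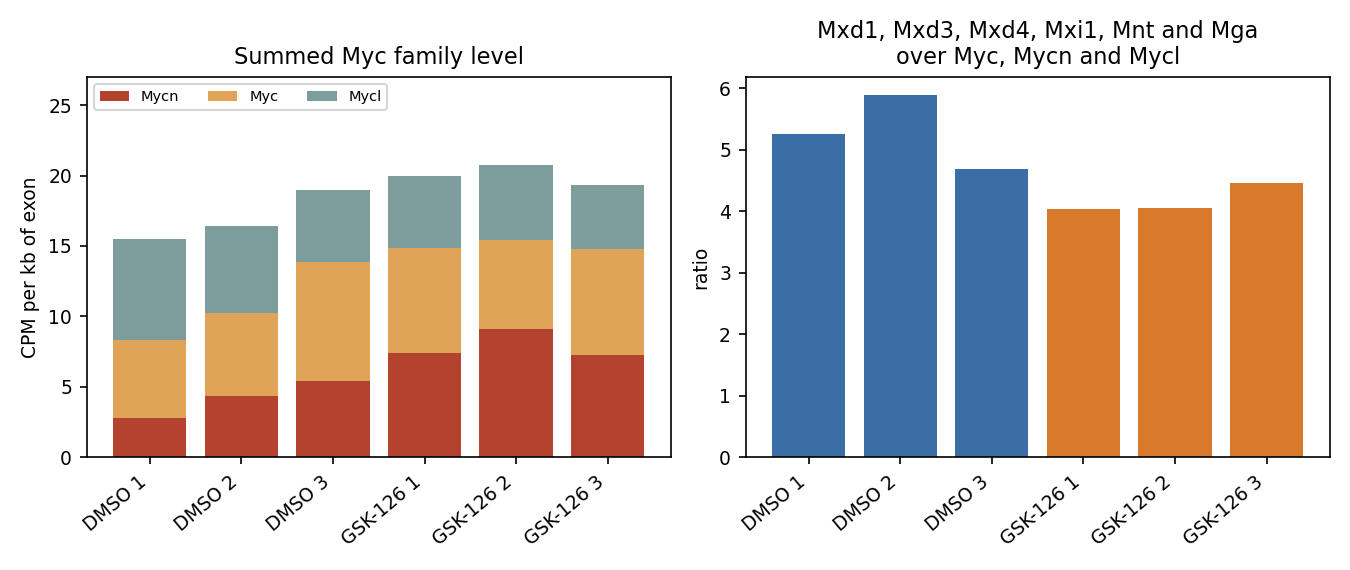
Left, summed level of Mycn, Myc and Mycl in each library in CPM per kilobase of exon, as stacked bars. Right, ratio of the summed level of Mxd1, Mxd3, Mxd4, Mxi1, Mnt and Mga to that sum, which was 4.70 to 5.89 with DMSO and 4.03 to 4.47 with GSK-126.

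The cultures held other cells besides CGNs, and fewer cells of a type and less RNA per cell cannot be told apart in bulk libraries. Of 12 granule neuron markers, all tested, 7 were called lower, Slc17a7, Gabra6, Cbln3, Etv1, Cbln1, Rbfox3 and Neurod1, beside 1.42% of all genes called lower. The median of the list was -0.55, with 10 below 0 and 2 above, Tubb3 (0.36, edgeR adjusted p = 0.167) and Pax6 (0.04). The summed level of the 12 was 4743 to 6998 CPM with DMSO and 3386 to 5237 CPM with GSK-126. Of 22 markers of cycling granule precursors 21 were tested and 0 were called by edgeR with the block (0 at an unadjusted p under 0.05), and the sums were 657 to 923 and 728 to 937 CPM. Atoh1, which defines GNPs, was counted 0, 0 and 6 times in the DMSO libraries and 3, 0 and 0 times in those given GSK-126. Fibroblast markers summed to 6831 to 8853 CPM with DMSO and 8879 to 9848 CPM with GSK-126, and this sum did not overlap between the treatments. Col1a1 was called higher of 6, with 5 above 0 and 1 below. Over all genes 2.23% were called higher. Endothelial and mural markers summed to 172 to 246 and 236 to 335 CPM. Flt1 and Pdgfrb were called higher of 6 tested, with 4 above 0 and 2 below. Cldn5 and Kcnj8 did not pass the filter. Microglial markers summed to 288 to 537 and 346 to 775 CPM. C1qb and C1qc were called higher of 8 tested, with 6 above 0 and 2 below, and Trem2 had 0 counts in every library.

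Of 9 astrocyte markers 0 were called by edgeR and 3 had an unadjusted p under 0.05, beside 16.7% of all genes. The 9 summed to 2231 to 6960 and 2293 to 7192 CPM. Oligodendrocyte lineage markers summed to 431 to 656 and 495 to 783 CPM. Cspg4 was called higher of 8, with 5 above 0 and 3 below, beside 2.23% of all genes called higher. GABAergic neuron markers summed to 188 to 253 and 169 to 189 CPM. Slc32a1 was called lower of 6 tested, with 2 above 0 and 4 below, beside 1.42% of all genes called lower. The part of these cell types in the Mycn result was not tested.

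Genes that work with or downstream of the network were read from the same fit, list by list. Where edgeR called 0 genes of a list, DESeq2 and limma-voom with the block called 0 as well, except that DESeq2 called the metabolic gene Ldha, lactate dehydrogenase A, higher. Among the parallel MLX branch, which pairs with MXD proteins and senses glucose, 0 of 4 tested genes were called by edgeR (1 at an unadjusted p under 0.05, median log2 fold change -0.15). Mlx had log2 fold change 0.11 (adjusted p = 0.765) and Mlxip -0.13 (adjusted p = 0.665), and Mlxipl, counted 12, 1 and 1 times in DMSO and 9, 2 and 6 times in GSK-126 libraries, did not pass the filter. Txnip, the glucose-responsive target of that branch, had -0.29 (SE 0.103, edgeR adjusted p = 0.170). A part of the exons of Mlx (19.3%) and Txnip (19.4%) overlaps an opposite-strand gene.

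Of the 12 genes for PRC1.6, the complex that MGA joins, 0 were called by edgeR and 2 had an unadjusted p under 0.05, with a median of -0.11 and 10 of 12 below 0. Hdac2, a histone deacetylase shared with other complexes, had 138, 156 and 146 CPM with DMSO and 114, 133 and 108 CPM with GSK-126. All GSK-126 libraries lay below all DMSO libraries, and the fitted log2 change was -0.31 (SE 0.106, edgeR adjusted p = 0.156). Groups did not overlap for 3 of the 12 genes, Hdac2 included, beside 10.9% of all genes. Of 13 germline genes that this complex keeps off in other cells, 3 passed the filter, 0 were called by edgeR (0 at an unadjusted p under 0.05), and Stk31, Slc25a31, Taf7l, Hormad1 and Tuba3b had 0 counts in every library. Tdrkh, with the lowest p of these, had -0.18 (edgeR adjusted p = 0.552), and 36.7% of its exon bases overlap an opposite-strand gene.

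SIN3 and NCOR corepressor genes had a median of -0.04, with 0 of 12 called by edgeR and 1 at an unadjusted p under 0.05. That gene was Arid4a, a subunit of the SIN3 complex (-0.28, adjusted p = 0.288). The coactivators of MYC and its partner Miz1 had a median of 0.02, with 0 of 13 called by edgeR and 0 at an unadjusted p under 0.05. Zbtb17, which encodes Miz1, had the lowest p (0.31, adjusted p = 0.421).

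Among 14 tested genes that set MYC protein turnover, Fbxw7 fell and no other passed the test, beside 1.42% of all genes called lower. The median of the list was -0.05, with 3 above 0 and 11 below. An unadjusted p under 0.05 was found for 3 of the 14, beside 16.7% of all genes. FBXW7 is the ubiquitin ligase subunit that marks phosphorylated MYC and MYCN for destruction, and also NOTCH and cyclin E. Fbxw7 had 134, 300 and 173 CPM with DMSO and 78.4, 168 and 114 CPM with GSK-126. It was lower in 3 of 3 pairs, though the groups overlapped because replicate 2 was the highest in both treatments. The fit with the block put the log2 change at -0.74 (SE 0.106, edgeR adjusted p = 0.00515), and that without it -0.75 (adjusted p = 0.825). Pim2 had 28.3, 32.3 and 24.9 CPM with DMSO and 16.6, 22.3 and 17.5 CPM with GSK-126 (-0.60, SE 0.156, edgeR adjusted p = 0.0612). Only for Pim2 did the groups not overlap in this list, beside 10.9% of all genes. Protein levels were not measured.

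The lists of genes that MYC is known to raise in ribosome production and metabolism had small positive medians. In pairs 1, 2 and 3 the medians were 0.21, 0.02 and 0.04 for ribosome production and 0.23, 0.12 and 0.13 for metabolism. Log2 ratios had 1 sign in all 3 pairs for 12 of 35 and 18 of 35 genes, beside 39% of all genes. Of 35 nucleolar and ribosome production genes 0 were called by edgeR (0 at an unadjusted p under 0.05), and their log2 fold changes ran from -0.23 to 0.29 with a median of 0.10, 27 above 0 and 8 below. Gnl3, the nucleolar protein nucleostemin, had the lowest p (0.27, adjusted p = 0.370). Of 35 tested metabolic and translation genes 0 were called by edgeR, and 7 had an unadjusted p under 0.05, beside 16.7% of all genes. Their median was 0.16, with 30 above 0 and 5 below. Odc1, the rate-limiting enzyme of polyamine synthesis and a classical MYC target, had 115, 89.3 and 112 CPM with DMSO and 160, 132 and 130 CPM with GSK-126. Its libraries did not overlap, and the log2 fold change was 0.41 (SE 0.112), short of the threshold (edgeR adjusted p = 0.0732), and it was called only in the fit with no filter on low counts (adjusted p = 0.0172).

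Of 13 cell cycle genes under MYC, Ccnd2 was called higher, beside 2.23% of all genes, and 3 had an unadjusted p under 0.05, beside 16.7% of all genes. The median of the list was 0.04, with 8 above 0 and 5 below. E2f1, among the 3, was lower in 3 of 3 pairs (-0.33, SE 0.142, edgeR adjusted p = 0.260). Its groups did not overlap, which in this list held for E2f1 alone, beside 10.9% of all genes. Ccnd2, a D-type cyclin of GNPs, had 187, 186 and 314 CPM with DMSO and 436, 296 and 563 CPM with GSK-126. DMSO replicate 3 stood above GSK-126 replicate 2, so the groups overlapped, but all 3 pairs were higher. On the log2 scale the rise was 0.91 (SE 0.120, edgeR adjusted p = 0.00345), and the adjusted p without the block was 0.806.

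Genes that MYC is known to hold down had the highest median of the network lists, 0.30, with 6 above 0 and 3 below. Of these, 4 of 9 were called higher and 0 lower, beside 2.23% of all genes called higher. Thbs1, the secreted angiogenesis inhibitor thrombospondin 1, had 138, 197 and 291 CPM with DMSO and 291, 386 and 524 CPM with GSK-126 (0.97, SE 0.102, edgeR adjusted p = 0.00103). Ndrg1, a stress and differentiation gene, had 52.5, 21.1 and 82.0 CPM with DMSO and 138, 41.2 and 115 CPM with GSK-126 (0.95, SE 0.161, edgeR adjusted p = 0.0109). Each pair was higher in both genes. The groups of Ndrg1 overlapped, and those of Thbs1 met at 291 CPM without crossing.

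The other called genes of that list encode inhibitors of cyclin-dependent kinases. Cdkn2b, which encodes p15, had 9.11, 12.8 and 28.0 CPM with DMSO and 36.3, 22.8 and 39.3 CPM with GSK-126 (1.08, SE 0.248, edgeR adjusted p = 0.0376). Leaving out replicate number 1 or 2 ended this call, with edgeR adjusted p of 0.0630 or 0.0748. Cdkn1a, which encodes p21, had 99.7, 126 and 239 CPM with DMSO and 160, 154 and 321 CPM with GSK-126 (0.46, SE 0.112, edgeR adjusted p = 0.0461), and this call ended when any replicate number was left out. The edgeR adjusted p of Cdkn1a was 0.0552 with total counts as the scaling. From 3.43% to 8.43% of the exon bases of Ccnd2, Thbs1, Ndrg1 and Cdkn1a overlap an opposite-strand gene, and without the block 0 of the genes in all these lists were called by edgeR.

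Of 8 tested genes of the sonic hedgehog pathway, which lies upstream of Mycn in GNPs, 0 were called by edgeR and 2 had an unadjusted p under 0.05. Their median was 0.01, with 4 above 0 and 4 below. Gli1, a direct readout of the pathway, did not pass the filter and was counted 0, 2 and 7 times in the DMSO libraries and 1, 0 and 7 times in those given GSK-126. The receptor gene Ptch1, also a target of the pathway, had 101, 145 and 97.7 CPM with DMSO and 82.0, 117 and 79.2 CPM with GSK-126, lower in 3 of 3 pairs (-0.30, SE 0.104, edgeR adjusted p = 0.164). Boc, a coreceptor, had 115, 168 and 111 CPM with DMSO and 83.5, 129 and 91.3 CPM with GSK-126 (-0.37, edgeR adjusted p = 0.0850). Other genes of the list went up. Hhip was counted 27, 13 and 8 times with DMSO and 35, 21 and 60 times with GSK-126 (1.04, SE 0.544, edgeR adjusted p = 0.377). Smo was higher in 3 of 3 pairs (0.22, SE 0.106, edgeR adjusted p = 0.337).

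**Figure D4:**
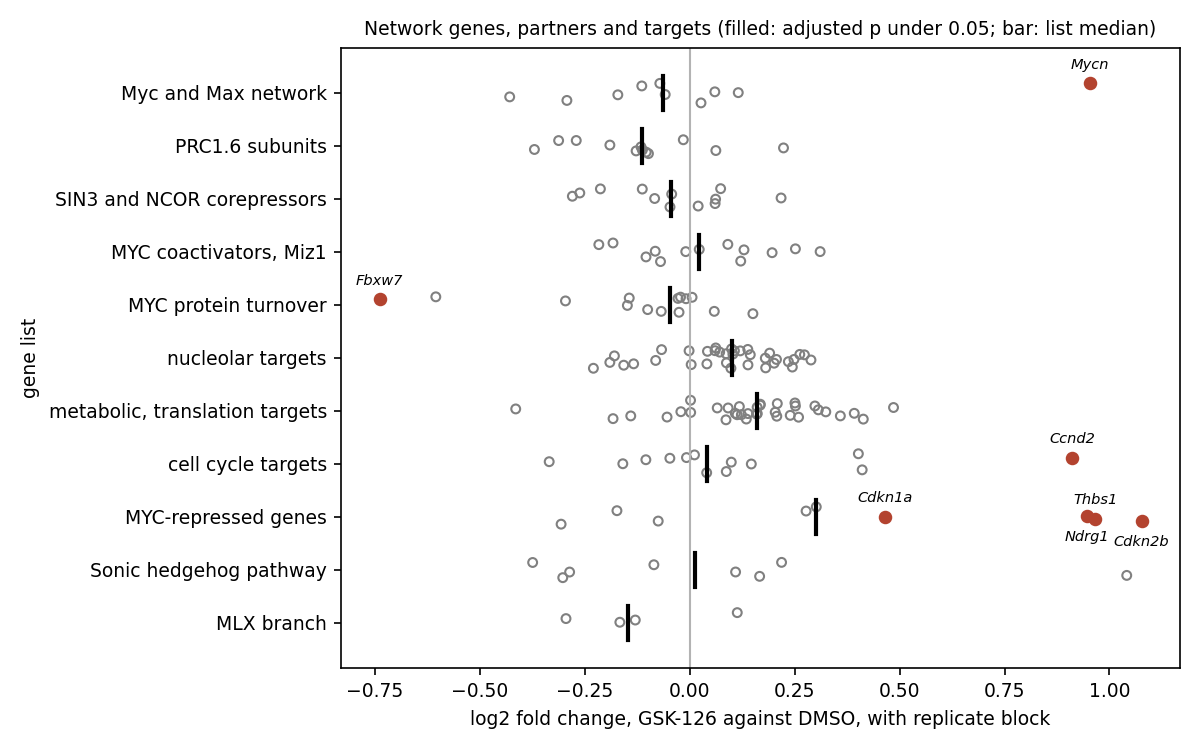
Log2 fold change with GSK-126 of every tested gene of the network and of the lists of partners, targets and upstream genes, each point a gene and each vertical bar the median of a list. Filled points, named, passed the adjusted p threshold of 0.05, and the list of MYC-repressed genes has the highest median, 0.30.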

How the data were processed

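RNA was sequenced from 6 cultures, 3 per treatment. The authors trimmed paired reads of 150 bases with Trimmomatic 0.38, aligned them to GRCm38 with STAR 2.7.2b and deposited raw HTSeq counts over exons per gene symbol (GENCODE). The strand setting of the counting is not given in the sources used here. HTSeq ends each file with 5 summary rows, which were set aside (39.1 to 41.6% of records were assigned to a gene and 44.8 to 46.7% to no feature). Depth sets the precision of low genes, and floors cover counting error only.

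Counts were analysed in edgeR 4.0.16 (R 4.3.3) with filterByExpr, TMM scaling and quasi-likelihood tests, with treatment and the replicate number as terms, and p-values were Benjamini-Hochberg adjusted over 16343 genes with a threshold of 0.05. The replicate number was used as a pairing, and the data bear on it as follows. Deviations of DMSO and GSK-126 libraries from their group means correlated at 0.351, 0.503 and 0.517 for same numbers and at -0.411 to -0.0103 for different numbers. Deviations from a mean of 3 libraries sum to 0, so positive values for same numbers bring negative values for different numbers. The negative values are therefore no separate evidence for the pairing. Ratios within pairs used a prior count of 2. Levels per kilobase used exon lengths of GENCODE M21. No 2 libraries agreed within sampling noise (chi-square per degree of freedom at least 9.98). The script was tested on simulated data. Alternatives were no block, DESeq2 1.42.0, limma-voom (limma 3.58.1), other scalings and filters, robust dispersions and leaving out replicates.

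The members, gene lists and tests were chosen with earlier results of these data known. Named genes were the 10 members, Mlx, Mlxip and Mlxipl, from each other network list the called genes (up to 4, otherwise the 4 with the lowest p, or the gene with the lowest p where none was called), and the 3 genes whose centered log2 CPM was closest to that of Mycn. Other genes (markers, further sonic hedgehog pathway genes, Pim2, E2f1 and Ldha) were named after their values were seen.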

Additional observations from a re-analysis of the deposited data

How the results depend on the processing

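The replicate block decided the calls. With the block 597 genes and 1 member, Mycn, were called, and with no replicate block edgeR called 0 genes and 0 members, and DESeq2 59 genes and 0 members. With the block, no filter gave 1136 genes (cause not tested), and the other settings gave 535 to 670 genes, all with Mycn called. Leaving out replicates gave 0 to 704 genes and 0 to 1 members. With the block the gene count was 704 without replicate number 1, 178 without 2 and 359 without 3, and Mycn was called only without number 3. The log2 fold change of Mycn was 0.92 to 0.96 over the settings that kept all libraries and 0.70 to 1.23 over those that left any out, and its edgeR adjusted p was 0.0631, 0.120 and 0.00313 without replicate numbers 1, 2 and 3. When replicates were left out, Mycl, Mxd1 and Mxi1 stayed below 0 and the other 6 members not called took either sign, with log2 fold changes in the block fit of -0.047 to 0.27 for Myc, -0.12 to 0.040 for Max, -0.24 to 0.074 for Mxd3, -0.21 to 0.067 for Mxd4, -0.025 to 0.20 for Mnt and -0.080 to 0.23 for Mga. With no replicate block the values that changed sign were -0.011 for Myc, 0.045 and 0.098 for Mxd3, 0.0036 for Mxd4, -0.060 for Mnt, and -0.0044 and -0.068 for Mga. With 3 cultures a treatment, changes of the size of the intervals given for these genes were not resolved.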

Other observations

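The 3 genes whose profile over the 6 libraries was closest to that of Mycn were picked by the root-mean-square difference of centered log2 CPM, for which the median of all tested genes was 0.622. Edn1, which encodes the vasoconstrictor peptide endothelin 1, differed by 0.137 and was counted 9, 12 and 17 times in the DMSO libraries and 42, 30 and 30 times in those given GSK-126 (log2 fold change 1.23, edgeR adjusted p = 0.166). Fam198b, which encodes a Golgi protein, differed by 0.144 and had 31.5, 50.6 and 59.1 CPM with DMSO and 69.7, 84.8 and 89.0 CPM with GSK-126. On the log2 scale it was higher by 0.82 (SE 0.133, edgeR adjusted p = 0.00880). Klf2, a transcription factor known from endothelial cells under flow, differed by 0.155 and had 6.58, 7.75 and 11.9 CPM with DMSO and 13.4, 17.4 and 16.2 CPM with GSK-126 (0.86, edgeR adjusted p = 0.0554, and called with no filter at 0.0041 and without replicate number 3 at 0.0467). In all 3 genes, as in Mycn, DMSO replicate 1 was the lowest library and the treatments did not overlap. Likeness was computed over all 6 libraries, so the difference between treatments and the low DMSO replicate 1 are part of it. That the 3 genes share these traits with Mycn follows from how they were picked.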
